A study of Homo sapiens with 9 samples.

Results

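Hyaluronan is a long, unsulfated sugar polymer of the pericellular matrix. Hyaluronan synthases at the plasma membrane extrude it from UDP-glucuronic acid and UDP-N-acetylglucosamine, CD44 is its main cell surface receptor, and hyaluronidases together with the hyaluronan-binding protein CEMIP depolymerize it. In lung carcinoma, as in other tumours, this system is studied for its part in adhesion and migration. The genes described here are 7 of the 58721 genes counted: the synthases HAS2 and HAS3, the receptor CD44, and the degrading factors CEMIP, HYAL1, HYAL2 and HYAL3. They were chosen by their symbols, after HAS3 had been seen to be higher in siCLOCK than in control in counts taken regardless of strand but not in a strand column. Values of siCLOCK against control, and of HAS3 in melatonin against siCLOCK, are therefore given as a description without a p-value.

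All libraries are of H1299, a cell line established from a metastasis of a human lung carcinoma. One group of 3 was kept in serum free medium and is the control, the second group of 3 carries the label siCLOCK (small interfering RNA against the circadian transcription factor CLOCK), and the third group of 3 received 0.1 mM melatonin. The labels name no non-targeting siRNA and no exposure time, and they do not say whether the medium of the control was shared by the treated groups. They call the 3 samples of a group independent without naming separate cultures, so the p-values measure the spread between these samples, which may be technical.

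Counts assigned to genes ranged from 15384539 to 19192962 per library. The siRNA target CLOCK stood at 39.0, 38.6 and 44.4 CPM (the usual count scale that divides by library size, here with TMM, a correction for differences in library composition) in control, 20.9, 32.0 and 38.1 CPM in siCLOCK, and 39.0 to 41.6 CPM in melatonin. The library labelled siCLOCK replicate 3 thus lay next to the controls for the targeted gene. In siCLOCK against control CLOCK was at -0.42 on the log2 scale (SE 0.14) and did not pass an adjusted p under 0.05. That library and the 3 melatonin libraries had 2.24% to 2.34% unmapped reads, against 1.22% to 1.36% in the other 5 libraries, so that this second set holds every melatonin library and no control, and melatonin against control also compares the sets. Defining markers of leukocytes were near 0 (PTPRC at most 1 count and CD3E 0 counts in each library). The mesenchymal filament gene VIM stood at 1466 to 2018 CPM and the epithelial keratin genes KRT8 and KRT18 at 130 to 182 and 213 to 344 CPM, while the epithelial genes EPCAM and CDH1 had at most 9 and 2 counts.

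HAS3 is the gene whose counts regardless of strand led to the choice of these genes, and it was the only 1 of the 6 genes examined with the motif CACGTG in its promoter window. This motif is the canonical E-box, the site bound by CLOCK with its partner ARNTL. The promoter window of HAS3 is shown for that reason, as RefSeq gives it for GRCh38.p14 at chr16:69107290-69107589 on the plus strand, from 250 bases before to 50 after the start site, with the motif in capitals. That start site lies 1976 bases downstream of the first HAS3 base in GENCODE.

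HAS3: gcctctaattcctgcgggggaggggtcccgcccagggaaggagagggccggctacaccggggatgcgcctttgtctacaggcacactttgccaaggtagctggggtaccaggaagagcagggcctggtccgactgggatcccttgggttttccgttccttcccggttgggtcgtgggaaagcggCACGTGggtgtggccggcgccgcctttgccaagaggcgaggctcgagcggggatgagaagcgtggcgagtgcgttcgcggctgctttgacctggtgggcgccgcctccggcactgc

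The motif begins 66 bases before the start site and reads the same on both strands. Of the 7 genes 6 matched an entry of that table, and the windows of CD44, CEMIP, HYAL1, HYAL2 and HYAL3 held neither CACGTG nor the related CACGTT on either strand. Over all 35116 promoters of the same 300 bases, 7.26% held CACGTG and 5.34% held CACGTT. A match describes the letters of the window and is no measure of binding.

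**Figure D1:**
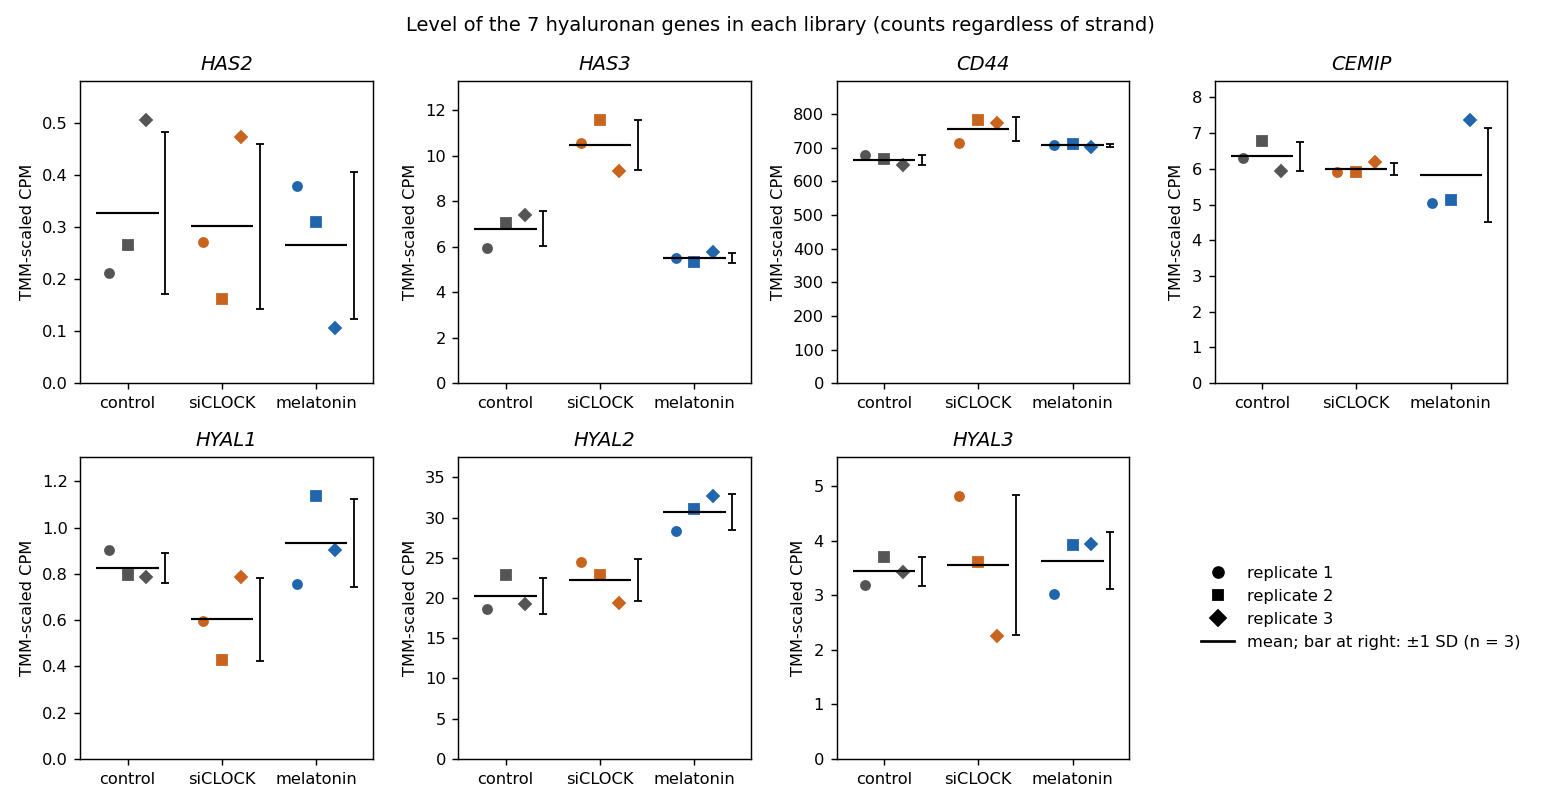
Level of each gene in each library, in TMM-scaled CPM (vertical axis from 0, one scale per panel), by group (horizontal axis). Points are libraries, the line is the group mean and the bar is 1 SD (n = 3): HAS3 is highest in the 3 siCLOCK libraries (9.34 to 11.6 CPM) and HYAL2 in the 3 melatonin libraries (28.3 to 32.7 CPM), while HAS2 stays under 0.51 CPM throughout.

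The 7 genes were expressed at widely different levels. Per kilobase of exon, CD44 stood at 66.4 CPM ± 1.46 (SD, n = 3) in control, far above HYAL2 at 4.45 ± 0.495. HYAL3 followed at 1.69 ± 0.128, HAS3 at 1.28 ± 0.144, CEMIP at 0.833 ± 0.0544, HYAL1 at 0.264 ± 0.0208 and HAS2 at 0.0781 ± 0.0372. No neighbours in this order overlapped among the control libraries. In siCLOCK the order of HYAL3 and HAS3 was not resolved, since their libraries ranged from 1.11 to 2.37 and from 1.77 to 2.18 CPM per kilobase. Reads that touch exons of more than 1 gene are left out of these counts, so levels of genes with shared exons are low estimates. The order therefore holds for these counts only. The place of HAS3 is the least certain, since its strand columns held 534 to 729 more counts per library, as described below.

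HAS2 (ENSG00000170961.6, chromosome 8, 121612116 to 121641390 on the minus strand of GRCh38), the synthase linked to embryonic heart development and to matrix-rich mesenchymal cells, was barely detected. Its counts were 4, 5 and 9 in control, 5, 3 and 9 in siCLOCK, and 6, 6 and 2 in melatonin. The groups overlapped, and HAS2 was the 1 member that did not pass the filter on low counts. At this depth a difference could not be seen: without the filter, melatonin against control gave a log2 fold change of -0.33 (SE 0.54, edgeR adjusted p = 0.798). The remaining synthase gene HAS1 had 0 counts in 8 libraries and 2 counts in 1, and a count of 0 allows up to 0.155 to 0.189 CPM, depending on the library (3 counts, counting error only). HAS3, by contrast, had 87 to 215 counts per library.

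HAS3 (ENSG00000103044.10, chromosome 16, 69105564 to 69118719 on the plus strand) encodes the synthase generally credited with shorter hyaluronan chains. Counted regardless of strand, it stood at 5.94, 7.04 and 7.41 CPM in control, 10.5, 11.6 and 9.34 CPM in siCLOCK, and 5.49, 5.32 and 5.75 CPM in melatonin. Every siCLOCK library lay above every control, and every melatonin library lay below every control, although melatonin replicate 3 and control replicate 1 were close.

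As a description, the siCLOCK libraries exceeded control by a log2 fold change of 0.63 (SE 0.12), or 1.54-fold. The log2 difference was 0.70 without the library labelled siCLOCK replicate 3, and 0.70 with a model term for the 2 sets of libraries (the set term). These are not separate checks, because that library is the only siCLOCK library in the second set. With the set term, siCLOCK against control therefore rests on siCLOCK replicates 1 and 2. HAS3 was the 1 member of 6 tested that was called in siCLOCK, where 0.122% of all 16441 tested genes were called (0.0547% higher and 0.0669% lower). HAS3 and CD44 were the 2 members without overlap there, both higher, where 10.8% of tested genes did not overlap (5.75% higher and 5.06% lower). The genes were chosen on this contrast, so nothing is read from these shares. The call ended without control replicate 1 (0.54), control replicate 2 (0.65) or siCLOCK replicate 2 (0.55), and also when any 1 of the melatonin libraries, which only share the spread estimate, was left out (0.62 each).

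In melatonin against control, a contrast that shares the control libraries, HAS3 was at -0.30 (SE 0.13) and did not pass (edgeR adjusted p = 0.107). It was nearer 0 in the other counts and fits, at -0.05 on strand 1, -0.09 on strand 2, -0.07 in their sum and -0.06 with the set term (edgeR adjusted p = 0.768, 0.550, 0.601 and 0.923). Melatonin against siCLOCK differed by -0.92 (SE 0.12), or 0.527-fold, again a description. In that comparison HAS3 and CD44 were lower and HYAL2 higher without overlap, and 34.2% of tested genes did not overlap (16.8% higher and 17.4% lower). Among protein-coding genes with a mean of at least 5 CPM, those whose log2 levels over the 9 libraries were most like HAS3 were LIF (root-mean-square difference 0.12), XDH (0.13), ALDH1A3 (0.15) and KCNJ2 (0.15), where the median of the 10534 genes compared was 0.40. LIF, a cytokine of the IL6 family, stood at 49.2 CPM ± 2.67 (SD, n = 3) in control, 64.9 ± 5.22 in siCLOCK and 38.0 ± 1.44 in melatonin. XDH, the purine-oxidizing enzyme xanthine dehydrogenase, stood at 7.89 ± 0.375, 10.2 ± 0.908 and 5.58 ± 0.0903 CPM in the same order.

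The HAS3 pattern depended on which count column was read. The downstream end of HAS3 overlaps CHTF8 (ENSG00000168802.12, chromosome 16, 69118010 to 69132584 on the minus strand), a subunit of an alternative clamp loader of DNA replication. The annotation gives 365 exonic bases to both genes, at 69118355 to 69118719. These are a small part of the 5289 exonic bases of HAS3.

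**Figure D2:**
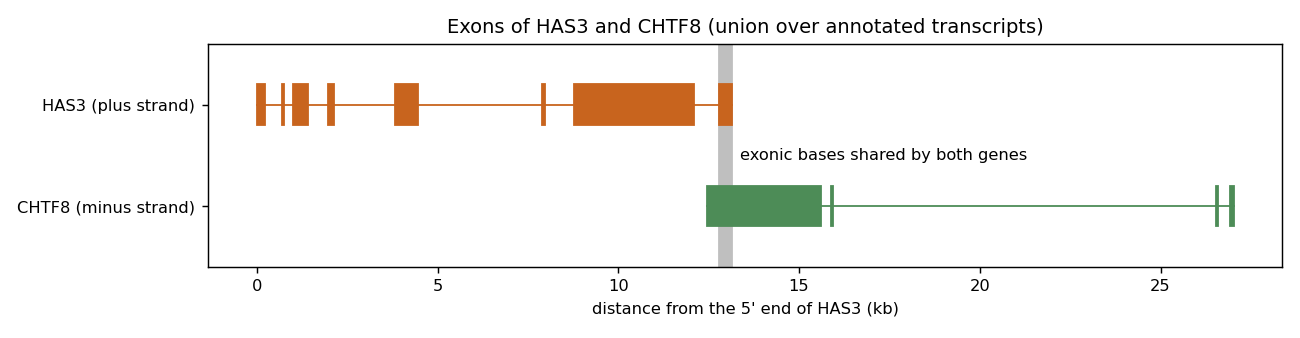
Exons of HAS3 (plus strand) and CHTF8 (minus strand) against distance from the upstream end of HAS3 in kilobases. Boxes are exons merged over all annotated transcripts and the grey band is the shared 365 bases, which form the last HAS3 exon and lie inside the largest CHTF8 exon.

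A read from the shared bases touches both genes and is left out when strand is ignored, but in a strand column it goes to whichever gene lies on that strand. The libraries were not stranded: over all genes, strand 1 held 1.01 to 1.05 times the counts of strand 2. For HAS3 the strand columns summed to 3.87 to 8.08 times the count regardless of strand, a ratio of 5.67 over all libraries that 2.66% of tested genes exceeded.

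In control the HAS3 counts were 112, 133 and 132 regardless of strand, 444, 509 and 485 on strand 1, and 335, 339 and 296 on strand 2. In siCLOCK they were 195, 215 and 178 regardless of strand, 533, 498 and 413 on strand 1, and 381, 334 and 348 on strand 2. In melatonin they were 87, 103 and 108 regardless of strand, 378, 506 and 475 on strand 1, and 243, 326 and 315 on strand 2. The strand columns thus held 534 to 729 more counts per library than the count regardless of strand, or 74.2% to 87.6% of their own sum.

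This excess did not separate the groups. On the scale of the counts regardless of strand it was 35.4, 37.8 and 36.4 in control, 38.9, 33.2 and 30.6 in siCLOCK, and 33.7, 37.7 and 36.3 CPM in melatonin. CHTF8 showed an excess of the same size, 620 to 846 counts, and the HAS3 excess was 0.834 to 0.884 of it in each library. CHTF8 itself averaged 82.8 CPM ± 6.08 (SD, n = 3) in control, 82.9 ± 11.2 in siCLOCK and 84.8 ± 5.83 in melatonin. In melatonin against control it was at 0.03 (SE 0.09, edgeR adjusted p = 0.820).

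With that excess included, HAS3 in siCLOCK against control was at -0.01 (SE 0.10) on strand 1 and 0.12 (SE 0.09) on strand 2. No member was called there in these columns, where 0.0536% and 0.0777% of genes were called, nor in their sum, where HAS3 was at 0.04 (SE 0.08) and 0.0861% of genes were called. Scaled to its own column total, strand 1 in siCLOCK ranged from 37.5 to 49.3 CPM and overlapped the control range of 41.0 to 46.9, while strand 2 ranged from 32.2 to 36.1 against 29.7 to 31.9 without overlap. Melatonin against siCLOCK shrank in the same way, to -0.04 (SE 0.10) and -0.20 (SE 0.09), and was not called, where 12.8% and 13.2% of genes were. The HAS3 difference stood in the reads that touch HAS3 exons alone, which number 87 to 215 per library, and gene counts cannot assign the shared reads to either gene.

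**Figure D3:**
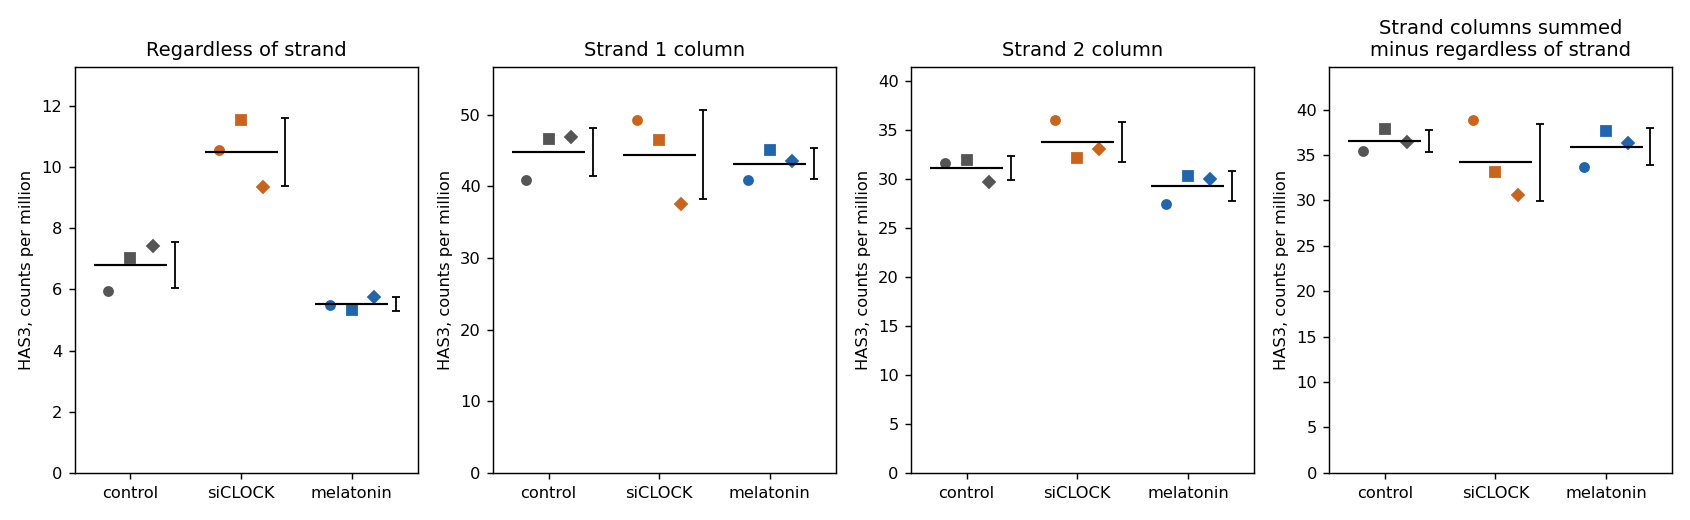
HAS3 in CPM (vertical axes from 0) by group, for counts regardless of strand, each strand column, and the excess of the summed strand columns over the count regardless of strand; points are libraries, lines are means and bars are 1 SD (n = 3). The siCLOCK libraries stand apart in the first panel (9.34 to 11.6 against 5.94 to 7.41 CPM in control), and the excess is 30.6 to 38.9 CPM over the 9 libraries.

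CD44 (ENSG00000026508.18, chromosome 11, 35138870 to 35232402 on the plus strand), a transmembrane glycoprotein with many splice forms, was the most highly expressed of the 7. It stood at 678, 665 and 649 CPM in control, 713, 780 and 772 CPM in siCLOCK, and 707, 711 and 700 CPM in melatonin. All 6 treated libraries lay above all 3 controls, by small amounts. The log2 difference was 0.18 (SE 0.06) in siCLOCK, given as a description, and 0.09 (SE 0.06, edgeR adjusted p = 0.296) in melatonin, which did not pass. Of the 6 members tested, 3 did not overlap between melatonin and control libraries (HAS3, CD44 and HYAL2), where 43.4% of all tested genes did not (21.9% higher and 21.4% lower).

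CD44 was steadier across count columns than HAS3, although it too overlaps a gene on the opposite strand. It shares 84 of its 10004 exonic bases with the antisense RNA CD44-AS1. The strand columns of CD44 held 1575 to 2289 more counts per library than the count regardless of strand, 12.3% to 13.6% of their sum, and those of CD44-AS1 exceeded its count by the same number within 2 in each library. CD44-AS1 had at most 31 counts regardless of strand, so its strand columns consisted almost wholly of reads over the shared bases. The log2 difference of CD44 in siCLOCK was 0.19 on strand 1 and 0.18 on strand 2, and in melatonin it was 0.14 and 0.02 (edgeR adjusted p = 0.161 and 0.884).

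The genes most like CD44 over the 9 libraries were DIP2A and GOLGA7 (root-mean-square difference 0.04 each on the log2 scale, median of all genes compared 0.15), followed by FAM234B and the myosin light chain MYL12A (0.04 each). DIP2A stood at 54.9 CPM ± 2.04 (SD, n = 3) in control, 62.5 ± 2.08 in siCLOCK and 56.6 ± 1.47 in melatonin.

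CEMIP (ENSG00000103888.16, chromosome 15, 80779343 to 80951776 on the plus strand), needed for hyaluronan breakdown in skin fibroblasts, showed no resolved difference. Its levels were 6.31, 6.77 and 5.95 CPM in control, 5.90, 5.91 and 6.19 CPM in siCLOCK, and 5.04, 5.11 and 7.35 CPM in melatonin. The melatonin libraries spread around the control range. The log2 difference was -0.08 (SE 0.14) in siCLOCK and -0.12 (SE 0.14, edgeR adjusted p = 0.610) in melatonin. It shares 224 exonic bases with MESD on the opposite strand, and its strand columns held 9 to 26 more counts than the count regardless of strand.

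The hyaluronidase genes HYAL1, HYAL2 and HYAL3 lie together on the minus strand of chromosome 3. HYAL2 (ENSG00000068001.13, 50317790 to 50322906) encodes a GPI-anchored surface hyaluronidase that cuts long chains into intermediate ones. HYAL1 (ENSG00000114378.16, 50299889 to 50312381) encodes the lysosomal enzyme that cuts those further. HYAL3 (ENSG00000186792.16, 50292831 to 50299468) encodes a relative with little established activity of its own.

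HYAL2 rose in melatonin. In bulk RNA, more cells that express a gene and more RNA per cell cannot be told apart. It stood at 18.6, 22.8 and 19.3 CPM in control, 24.5, 22.9 and 19.4 CPM in siCLOCK, and 28.3, 31.1 and 32.7 CPM in melatonin. All melatonin libraries lay above all others, while siCLOCK overlapped control. The log2 fold change in melatonin was 0.60 (SE 0.10, 1.52-fold, edgeR adjusted p = 2.98e-04) against control and 0.47 (SE 0.10, edgeR adjusted p = 0.00343) against siCLOCK. In siCLOCK against control it was 0.14 (SE 0.10).

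HYAL2 was the 1 member of 6 tested that passed in melatonin against control, where 23.1% of all tested genes passed (11% higher and 12.1% lower). In melatonin against siCLOCK 17.5% of tested genes passed (7.43% higher and 10.1% lower), and HYAL2 was called higher. HAS3 was lower there, a description only, since it was chosen for its level in siCLOCK. In melatonin against control the share of members called is thus no larger than that of all genes. The library labelled siCLOCK replicate 3, of the second set like melatonin, had 19.4 CPM, within the control range. HYAL2 stood at 24.5 and 22.9 CPM in siCLOCK replicates 1 and 2, of the first set. Replicate 3 alone cannot tell the set from melatonin, and the part of the set in the rise was not tested. With a term for the set, HYAL2 was at 0.89 against control (edgeR adjusted p = 0.00168), a value that rests on that 1 siCLOCK library.

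The HYAL2 rise appeared in both strand columns. On strand 1 it was 0.85 (SE 0.12, edgeR adjusted p = 3.28e-05) and on strand 2 it was 0.47 (SE 0.11, edgeR adjusted p = 0.00552), where 18.4% and 18.7% of genes were called (22.6% in their sum). The strand columns of HYAL2 summed exactly to the count regardless of strand in all 9 libraries. It shares 509 exonic bases with TUSC2, on the same strand, when all annotated transcripts are used and 0 with the basic transcripts alone. Which transcript set the counts used is not given in the sources used here. TUSC2 was at 0.10 in melatonin (SE 0.10, edgeR adjusted p = 0.556).

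The balance of strands in HYAL2 was uneven and differed between the 2 sets of libraries, which were divided by their unmapped reads. The second set holds every melatonin library and siCLOCK replicate 3, so set and melatonin are largely confounded. Strand 1 held 0.430 to 0.539 of the strand 2 count in the controls and siCLOCK replicates 1 and 2, and 0.622 to 0.696 in the second set. Over all libraries the ratio was 0.565, lower than in all but 1.38% of tested genes (median 1.04). HYAL3 at 0.556 and HYAL1 at 0.679 were uneven as well. CD44 moved the same way, from 0.676 to 0.772 in the first set and from 0.780 to 0.827 in the second, whereas the other 4 members tested overlapped between the sets. Of 13770 genes with enough counts, 4.6% were higher in the second set without overlap and 2.13% were lower. The part of this shift in the HYAL2 rise was not tested. The rise was 1.52-fold in counts that do not use strand.

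**Figure D4:**
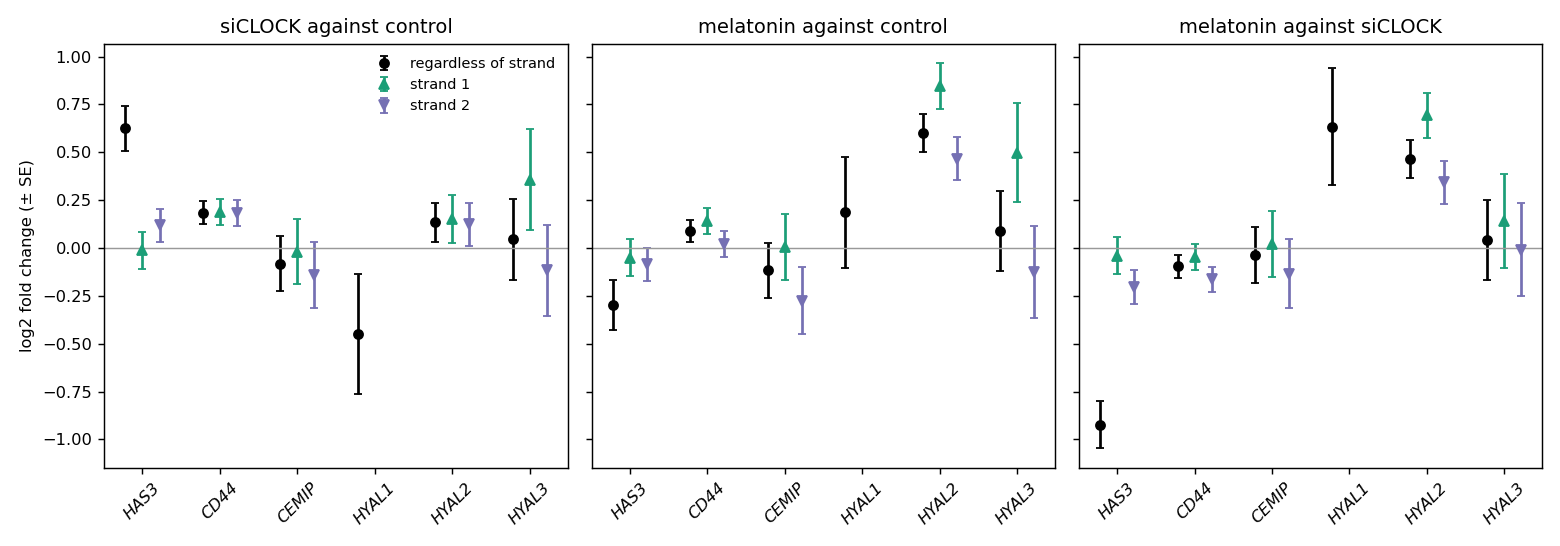
Log2 fold change (vertical axis, ± SE) of the 6 members that passed the filter, for the 3 comparisons and for counts regardless of strand, strand 1 and strand 2. HYAL1 did not pass the filter in either single strand column. HAS3 in siCLOCK against control stands at 0.63 regardless of strand but at -0.01 and 0.12 in the strand columns, whereas HYAL2 in melatonin is above 0 in each column (0.60, 0.85 and 0.47).

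HYAL1 and HYAL3 were not called in either treatment. HYAL1 counts were 17, 15 and 14 in control, 11, 8 and 15 in siCLOCK, and 12, 22 and 17 in melatonin. These groups overlapped. The log2 difference was -0.45 (SE 0.31) in siCLOCK and 0.19 (SE 0.29, edgeR adjusted p = 0.690) in melatonin. HYAL3 stood at 3.18, 3.70 and 3.42 CPM in control, 4.81, 3.60 and 2.26 CPM in siCLOCK, and 3.03, 3.93 and 3.94 CPM in melatonin. The siCLOCK libraries of HYAL3 spanned all the others. Its log2 difference was 0.05 (SE 0.21) in siCLOCK and 0.09 (SE 0.21, edgeR adjusted p = 0.810) in melatonin. The melatonin value moved widely, to 0.50 on strand 1, -0.12 on strand 2 and 0.99 with the set term (edgeR adjusted p = 0.198, 0.773 and 0.0765), and passed in none of these.

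HYAL3 shares 291 of its 2030 exonic bases with NAA80 and IFRD2 on its own strand. NAA80, an actin-acetylating enzyme, was at -0.26 in melatonin (SE 0.11, edgeR adjusted p = 0.0849), and IFRD2 fell by 0.45 on the log2 scale (edgeR adjusted p = 0.0188). Reads over the shared bases are missing from the HYAL3 count.

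Other genes of hyaluronan metabolism were taken from lists of 48 further genes, of which 27 passed the filter. In siCLOCK 0 of the 27 passed the edgeR threshold, where 0.122% of all tested genes passed. With DESeq2 1 of them, SPP1, passed, where 74 genes were called in all. At an unadjusted p under 0.05 there were 5 of the 27. All tested genes were not counted at that level, so nothing is read from this number. In melatonin 2 rose and 9 fell, where 11% of all tested genes rose and 12.1% fell. The median log2 difference in melatonin was -0.11, beside 0.01 over all tested genes. With the set term 2 of these 11 calls remained in the same direction (HMMR and VCAN), and 10 kept their sign. MMP14 was the exception, at 0.01. Over all tested genes the calls in melatonin against control fell from 3790 to 770 with the set term. The difference between the sets is estimated there from siCLOCK replicate 3 alone.

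CEMIP2, a transmembrane relative of CEMIP that degrades hyaluronan at the cell surface, rose from 35.8 CPM ± 1.41 (SD, n = 3) in control to 49.3 ± 3.71 in melatonin (0.46, SE 0.09, edgeR adjusted p = 0.00105). With the set term it was at 0.43 (edgeR adjusted p = 0.116). The hyaluronidase genes HYAL4 and SPAM1 had 0 counts in every library. Of 2 lysosomal exoglycosidase genes that serve the last steps of hyaluronan breakdown, HEXA rose by 0.62 (SE 0.10, edgeR adjusted p = 1.62e-04), and with the set term it was at 0.52 (edgeR adjusted p = 0.0822). The beta-glucuronidase gene GUSB stood at 0.06 (edgeR adjusted p = 0.508).

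Of the 7 enzymes that make the UDP-sugar precursors, all tested, 2 fell in melatonin and 5 did not pass, beside 12.1% of all tested genes falling. UAP1, which makes UDP-N-acetylglucosamine, fell from 237 CPM ± 8.15 (SD, n = 3) to 179 ± 7.66 (-0.40, edgeR adjusted p = 0.00507). UGDH, which makes UDP-glucuronic acid, fell by 0.22 on the log2 scale (edgeR adjusted p = 0.0360). GFPT1, the entry enzyme of hexosamine synthesis, stood at 0.02 (edgeR adjusted p = 0.855).

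Among other receptors, HMMR, a hyaluronan-binding protein that also serves the mitotic spindle, fell from 167 CPM ± 6.25 (SD, n = 3) to 99.0 ± 2.25 in melatonin (-0.76, SE 0.08, edgeR adjusted p = 4.21e-06). LAYN stood at -0.13 (edgeR adjusted p = 0.676). LYVE1, STAB1, STAB2, TLR2 and TLR4 had at most 13 counts in any library. Of the hyaluronan-binding matrix genes 5 of 15 were tested and 2 fell in melatonin (12.1% of all tested genes fell), the proteoglycans VCAN (-0.51, edgeR adjusted p = 0.00275) and BCAN (-0.46, edgeR adjusted p = 0.00388). TNFAIP6, which transfers heavy chains onto hyaluronan, had 0 counts throughout.

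Of 13 genes that bind, cut or splice CD44, 10 were tested and 4 fell in melatonin by 0.22 to 0.25 on the log2 scale, again beside 12.1% of all tested genes: EZR and MSN, which link CD44 to actin, NF2, which encodes merlin, and the membrane protease MMP14 (edgeR adjusted p = 0.00935, 0.0125, 0.0214 and 0.0418). With the set term none of these 4 passed. SPP1, the CD44 ligand osteopontin, averaged 2.28 CPM in control, 4.49 in siCLOCK and 1.99 in melatonin, and differed between melatonin and siCLOCK (-1.16, edgeR adjusted p = 0.00116) but not past the threshold between melatonin and control (-0.18, edgeR adjusted p = 0.630). The splicing factors ESRP1 and ESRP2, which keep epithelial forms of CD44, had 3 to 16 and 3 to 10 counts per library.

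**Figure D5:**
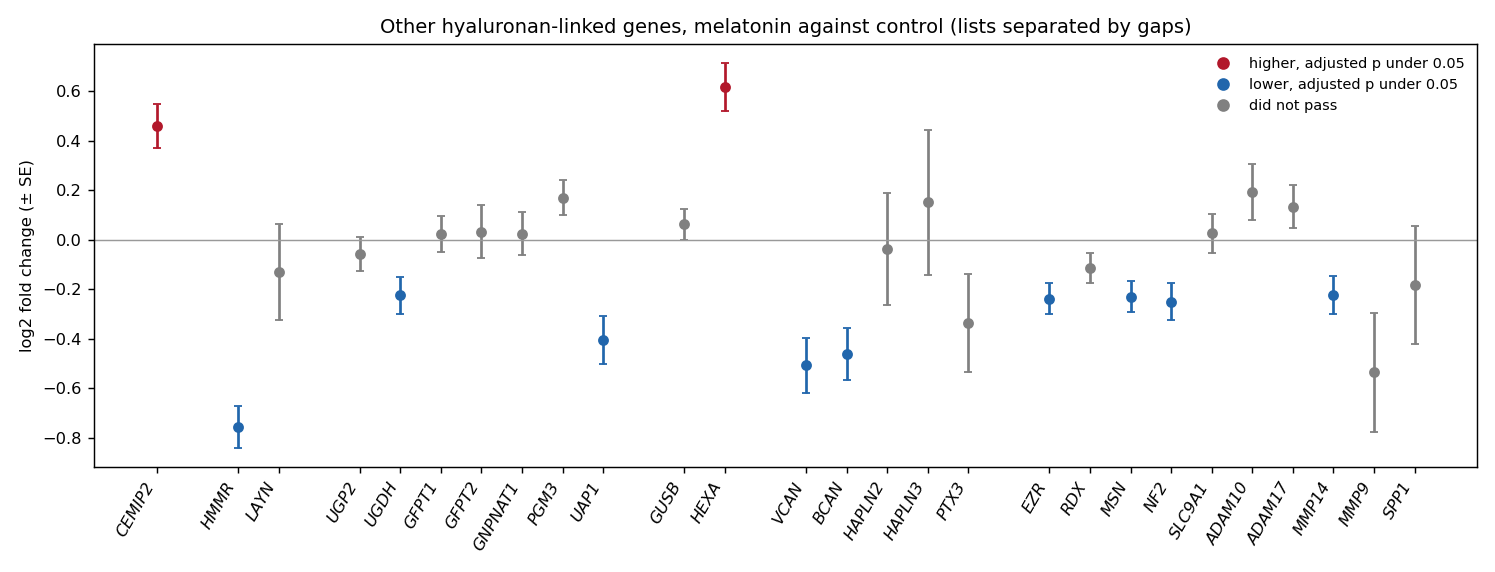
Log2 fold change (± SE, vertical axis) in melatonin against control of the 27 tested genes of the lists, grouped by list from degrading enzymes at the left to CD44 partners at the right; colours mark genes past an adjusted p of 0.05. HEXA (0.62) and CEMIP2 (0.46) are the largest rises and HMMR (-0.76) the largest fall.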

How the data were processed

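RNA of 9 H1299 libraries was sequenced as paired reads on a BGIseq500, per the labels' protocols. Each deposited file gives unnormalized counts of 58721 genes in 3 columns, 1 that ignores strand and 1 per strand, and each column was scaled to its own total. The submitters' processing notes name STAR 2.7.9a and GRCh38. The annotation release is not given in the sources used here; all identifiers matched GENCODE 29, which supplied symbols, coordinates and exon overlaps from all its transcripts.

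Genes were kept with edgeR's filterByExpr (16441 kept), scaled with TMM, and fitted in R 4.3.3 with edgeR 4.0.16's quasi-likelihood model, 1 term per group over all 9 libraries (biological coefficient of variation 0.0682). Two-sided p-values were adjusted over all tested genes (Benjamini-Hochberg), with a threshold of 0.05. The SE is the log2 fold change divided by the square root of F. Likeness used log2 CPM with a prior count of 2. The procedure was tested on simulated data. Alternatives were DESeq2 1.42.0, other scalings, filters and count columns, an adjusted p under 0.01, only the 6 libraries compared, a replicate block, each library left out, and a term for 2 sets of libraries divided at 1.8% unmapped reads. Replicates differed by more than counting noise (chi-square per degree of freedom 1.62 to 11.8).

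The members, lists and alternatives were chosen with earlier results of these data known. The text names all members, genes overlapping them, genes of the lists, and the 4 genes most like HAS3 and CD44. Some genes of the lists and markers are not reported here.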

Additional observations from a re-analysis of the deposited data

How the results depend on the processing

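Over 21 alternatives for each comparison, the count of members called in melatonin against control was 1 in each. HYAL2 passed in both melatonin comparisons under all 20 of its alternatives (0.47 to 0.89 against control). The 0.89 is from the set term, which rests on siCLOCK replicate 3 alone. Set and melatonin stay largely confounded in these alternatives. In siCLOCK against control the count fell from 1 to 0 under strand 1 counts, strand 2 counts, their sum, an adjusted p under 0.01, a filter of 5 CPM, a fit of only the 6 libraries compared and the replicate block, and ranged from 0 to 1 when each library was left out. HAS3 then stood at -0.012, 0.12, 0.04, 0.62 (5 CPM), 0.62 (6 libraries) and 0.63 (block). The strand columns add the shared exon reads, and why the call was lost under any of these settings was not tested. In melatonin against siCLOCK the count fell from 2 to 1 under strand 1, strand 2 and their sum, HAS3 being lost. The HAS3 call in that comparison is a description, since HAS3 was chosen for its level in siCLOCK.

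Signs turned for members that were not called. In melatonin against control CEMIP was at 0.0047 on strand 1, HYAL3 at -0.12 on strand 2 and HYAL1 at -0.43 with the set term. In melatonin against siCLOCK CEMIP was at 0.023 on strand 1, and ranged from -0.24 to 0.057 with a library left out, above 0 without melatonin replicate 1 or 2. HYAL3 was there at -0.0086 on strand 2 and ranged from -0.20 to 0.32 with a library left out, below 0 without siCLOCK replicate 3 or melatonin replicate 2 or 3. In siCLOCK against control HYAL3 was at -0.12 on strand 2 and ranged from -0.23 to 0.28 with a library left out, below 0 without control replicate 1 or siCLOCK replicate 1.

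All genes called in siCLOCK numbered 20, and 74 with DESeq2, 211 without a filter, 116 with the set term, 12 with the replicate block, 3 at an adjusted p under 0.01, 5 with the 5 CPM filter, 7 in the 6 libraries, 9 and 13 on strands 1 and 2, and 2 to 107 with a library left out. In melatonin against control they numbered 3790, and 770 with the set term, 2000 at 0.01, and 2451 to 4646 with a library left out. In melatonin against siCLOCK they numbered 2876, and 961, 1337 and 1650 to 3858. Same-numbered samples did not deviate together (correlations -0.09 to 0.06), so no pairing by replicate number was seen. Depth limits HAS2 and HYAL1, which had 2 to 22 counts per library.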
